A study of Homo sapiens with 4 samples.

Results

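The core of the G1 checkpoint was followed across the time course in 10 genes: the D cyclins CCND1, CCND2 and CCND3, the kinases CDK4 and CDK6, the inhibitors CDKN2A, CDKN2B, CDKN1B and CDKN1C, and the retinoblastoma gene RB1. The genes were chosen by symbol from the 19610 gene symbols of the deposited mRNA table, in which all 10 were found, each under 1 Ensembl gene ID, with 50 transcripts in all. The choice was made with earlier results of these data known. The RNA came from hFOB1.19, an established line of human fetal osteoblasts, and 4 libraries were sequenced. The day 0 library is labelled control and was taken at the lower culture temperature before induction. The libraries of days 3, 6 and 9 are labelled as undergoing mineralization and were taken at the higher temperature that the study used for mineralization. All 4 libraries are of the same line, which carries a temperature-sensitive form of the SV40 large T antigen, and with 1 library for each time point no comparison had a replicate check and no test was made. Time after induction, culture temperature and library cannot be told apart in any difference between day 0 and a later day.

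A D cyclin binds CDK4 or CDK6, and the active kinase phosphorylates RB1, which then releases the E2F transcription factors that drive S-phase genes. The INK4 inhibitors (p16INK4a from CDKN2A and p15INK4b from CDKN2B) bind CDK4 and CDK6 directly, while the KIP inhibitors (p27 from CDKN1B and p57 from CDKN1C) act mainly on cyclin E and cyclin A complexes of CDK2. Large T antigen binds RB1 and p53, and its temperature-sensitive form is active at the lower temperature and unstable at the higher one. The protein state of RB1 was not measured here.

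The values are FPKM (fragments scaled to transcript length and library size), which the authors deposited for each transcript and which were summed for each gene symbol. Days are compared as log2 ratios on the scale of FPKM + 1, on which the changes of weakly expressed genes come out too small. A gene was called 2-fold higher or lower at a log2 ratio of at least 1 or at most -1, among the 12859 symbols that reached 1 FPKM in 1 or more libraries, which include all 10 members. CCND2 reached 1 FPKM only in the later libraries, where it was high, so its passing the minimum says nothing about its rise. With no minimum the same members were called. Over these 12859 genes the log2 ratio to day 0 had a median of -0.08, -0.08 and -0.09 at the 3 later days. FPKM give no read counts for a gene, so the depth behind each value is unknown and no interval is given. The cells carried their osteoblast label only in part: COL1A1, COL1A2, SPARC and RUNX2 were above 1 FPKM in every library and ALPL and SPP1 on each later day, whereas SP7, BGLAP and IBSP stayed under 1 FPKM throughout. All 12 markers of leukocytes, endothelium, epithelium, muscle, fat, cartilage and glia were under 1 FPKM in every library, and their summed FPKM lay between 2.52 and 3.92.

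The largest difference among the members was in the D cyclins. CCND2 went from almost no mRNA to a level above that of CCND3, CCND1 was already abundant and became more so, and CCND3 stayed within 2-fold of day 0. On day 3, CCND2, CDKN2B and CDKN1C were 2-fold higher than on day 0 (3 of 10 members, against 8.13% of all genes tested) and 0 members were 2-fold lower (5.3% of all genes, or 13.4% in either direction). On day 6, CCND1 and CCND2 were 2-fold higher (2 of 10, against 9.01%) and 0 were lower (6.42%, or 15.4% in either direction). On day 9, the same genes CCND1 and CCND2 were 2-fold higher (2 of 10, against 9.6%) and CDKN1B was 2-fold lower (1 of 10, against 6.52%, or 16.1% in either direction). These counts are small numbers of 10 genes, and the 3 comparisons share the day 0 library. Because the members were chosen with earlier results of these data known, the shares of all genes are a background and not a test. The median log2 ratio of the 10 members was 0.60, 0.55 and 0.58 on days 3, 6 and 9.

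**Figure D1:**
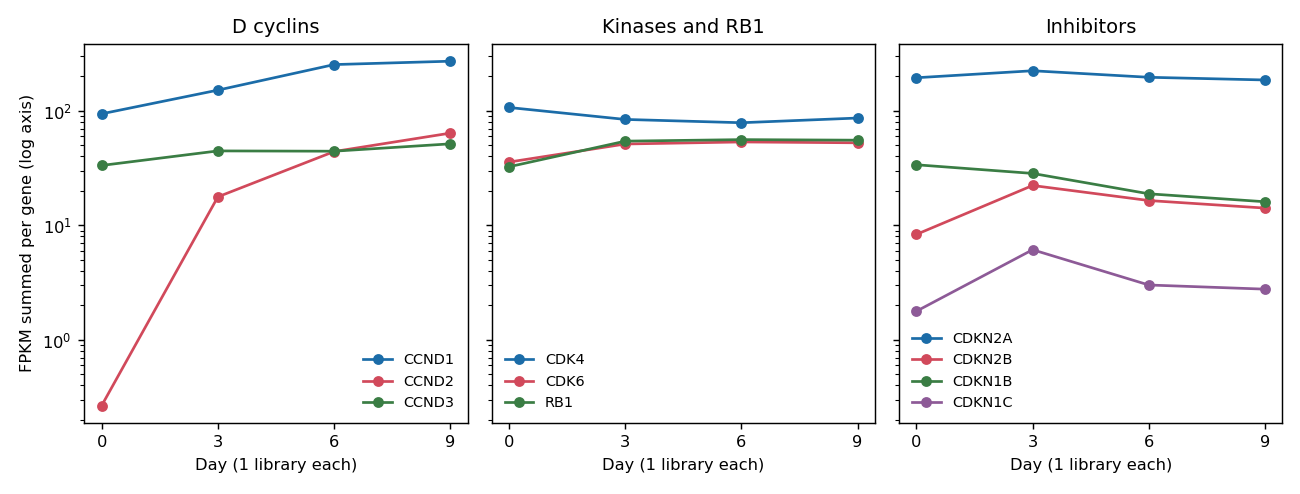
FPKM summed per gene (log axis) against the day of induction, with 1 library for each point and no error bars because no time point has a replicate. CCND2 crosses from 0.267 FPKM on day 0 to 63.9 on day 9, while CDK4 lies between 78.7 and 107 FPKM and CDKN2A between 186 and 224.

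CCND1 (ENSG00000110092), the D cyclin best known as a target of growth factor signalling, had 94.2, 152, 253 and 271 FPKM in the 4 libraries in order of day. Each later library was thus higher than the one before, with most of the difference reached by day 6. Days 6 and 9 were too close to be ordered, with a log2 ratio of 0.10 between them. At least as far from 0 in that comparison were 60.0% of all genes tested. The log2 ratio to day 0 was 0.68 on day 3, within the 2-fold limit, and 1.42 and 1.52 on days 6 and 9. On day 9, 573 of the 12859 genes had a larger ratio. In bulk RNA, a different share of cells that express a gene and a different amount of its RNA in each cell cannot be told apart. The transcript ENST00000227507 carried between 99.1% and 99.9% of the CCND1 FPKM in each library.

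CCND2 (ENSG00000118971), a second D cyclin with the same kinase partners, had 0.267 FPKM before induction and then 17.7, 44.1 and 63.9 FPKM. The day 0 library stood far under the other 3, and these 3 differed among themselves as well. The log2 ratios to day 0 were 3.89, 5.15 and 5.68. A larger ratio was found for 13, 4 and 8 genes at days 3, 6 and 9. The day 0 value is smaller than the added constant of 1, and with a constant of 0.1 the ratio on day 9 was 7.45. The transcript ENST00000261254 carried 97.7% to 100% of the FPKM, and the other listed CCND2 transcript, ENST00000536537, reached at most 0.402 FPKM.

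CCND3 (ENSG00000112576), the D cyclin best known for its part in lymphocytes and muscle, had 33.4, 44.7, 44.4 and 51.5 FPKM from day 0 to day 9. All 3 later libraries were above day 0, with log2 ratios of 0.41, 0.40 and 0.61, none of which reached the 2-fold limit. Of its 13 listed transcripts, ENST00000372991 carried 76.8% to 83.6% of the FPKM.

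Added together, the 3 D cyclins had 128 FPKM on day 0 and 387 on day 9, which is 3.02 times the day 0 sum. CCND1 held a nearly constant share of this sum, 73.7% on day 0 and 70.2% on day 9. The share of CCND2 went from 0.209% to 16.5% and that of CCND3 from 26.1% to 13.3%. On day 6 the shares of CCND2 and CCND3 were 12.9% and 13.0%, too close to be ordered, and on the leading transcripts alone they were 13.2% and 10.9%.

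**Figure D2:**
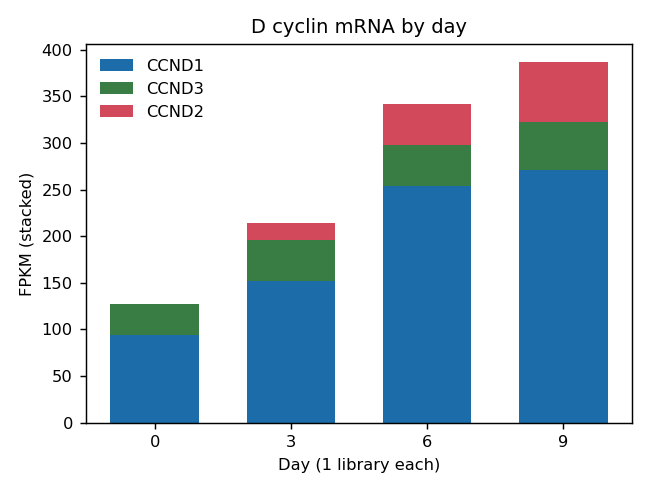
FPKM of the 3 D cyclins stacked for each day, with 1 library for each bar. The sum goes from 128 FPKM on day 0 to 387 on day 9, and the CCND2 segment is too small to see on day 0 and holds 16.5% of the bar on day 9.

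The partner kinases showed no such difference. CDK4 (ENSG00000135446) had 107 FPKM on day 0 and 84.1, 78.7 and 86.5 on days 3, 6 and 9, with log2 ratios of -0.34, -0.44 and -0.30. CDK6 (ENSG00000105810) had 35.7 FPKM on day 0 and 51.3, 53.5 and 52.6 later, with log2 ratios of 0.51, 0.57 and 0.55. The lower values of CDK4 and the higher values of CDK6 were each seen in all 3 later libraries but stayed within the 2-fold limit, and on day 9, 64.5% of all genes tested were at least as far from 0 as CDK4 and 41.7% as far as CDK6. The sum of both kinases was between 132 and 143 FPKM in every library. Set against this sum, the D cyclin FPKM came to 0.896, 1.58, 2.59 and 2.78 in the libraries from day 0 to day 9. With only the leading transcript of each gene, a setting added after the data were seen, the same ratio was 1.67, 2.70, 4.22 and 4.70. It was thus higher in each later library on both scales, but whether D cyclin or kinase FPKM was the larger on day 0 depended on the minor transcripts.

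The transcripts of CDK4 did not move alike. The transcript with the most FPKM, ENST00000257904, had 46.2, 46.3, 47.4 and 47.1 FPKM from day 0 to day 9 and was the most even of the larger transcripts. ENST00000546489 had 26.3 FPKM on day 0 and 13.1, 9.70 and 9.10 later, with a log2 ratio of -1.43 on day 9. The lower CDK4 sum of the later days therefore lay in the minor transcripts, and on ENST00000257904 alone the log2 ratio on day 9 was 0.03. For CDK6 the pattern was shared: ENST00000265734 had 25.2 FPKM on day 0 and 32.8 on day 9, and ENST00000424848 had 10.5 and 19.8. FPKM of transcripts that share exons are estimates of how reads divide among them, which limits what can be read from each one.

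**Figure D3:**
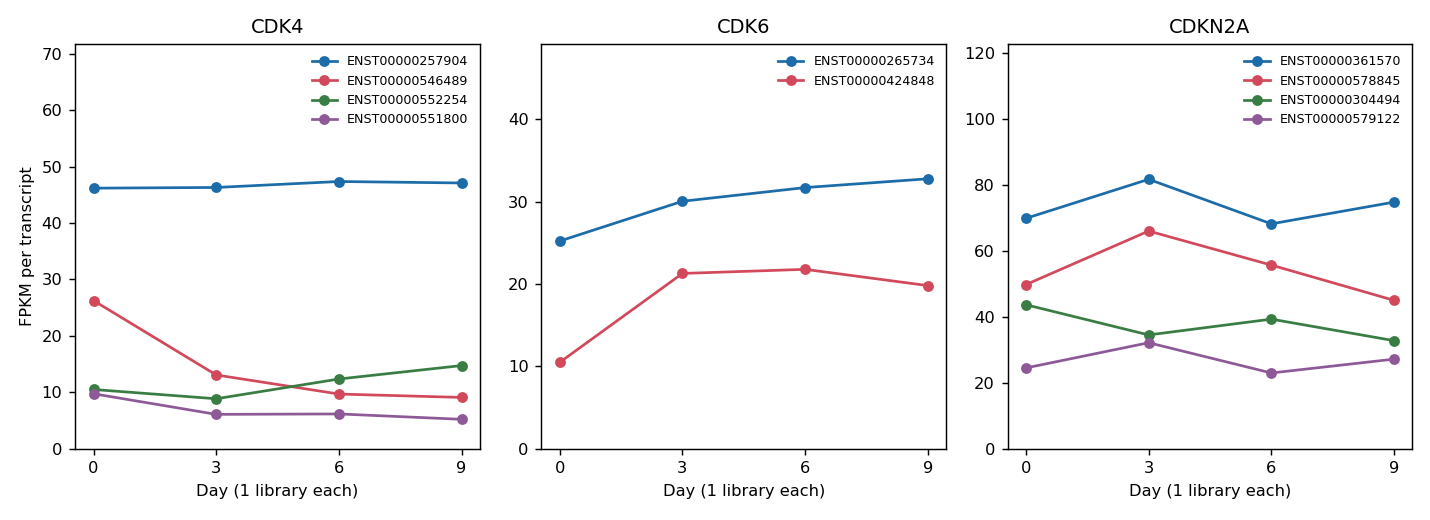
FPKM of single transcripts against the day of induction for CDK4 (the 4 with the most FPKM on day 0), CDK6 (both listed) and CDKN2A (the 4 with the most), with 1 library for each point. The leading CDK4 transcript stays between 46.2 and 47.4 FPKM while ENST00000546489 goes from 26.3 to 9.10.

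RB1 (ENSG00000139687), the pocket protein that the D cyclin kinases inactivate, had 32.5 FPKM on day 0 and 54.4, 56.1 and 55.4 on days 3, 6 and 9. The 3 later libraries were nearly equal and all stood above day 0. The log2 ratios of 0.73, 0.77 and 0.75 did not reach the 2-fold limit, and 25.4% to 27.1% of all genes tested were as far from 0 on each day. The table lists 1 RB1 transcript, ENST00000267163. In FPKM summed over transcripts, RB1 was the seventh of the 10 members on day 0 and the fifth on day 9, close to CCND3 and CDK6, from which it could not be ordered without replicates.

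The INK4 genes lie side by side on chromosome 9 and, summed over all transcripts of each gene, were at very different levels. CDKN2A has separate starts for p14ARF, which stabilises p53, and for p16INK4a, and CDKN2B has its own start for p15INK4b. The RefSeq promoter windows of these starts are shown because the 3 products come from neighbouring promoters of 1 locus. The windows carry only a gene symbol, and the assignment of the CDKN2A windows to p14ARF and p16INK4a is general knowledge. Each holds the 250 bases before the annotated start, 5′ to 3′, on the minus strand of GRCh38.p14, and capitals mark the GC box GGGCGG on either strand.
CDKN2A, p14ARF start, chr9:21995325-21995574: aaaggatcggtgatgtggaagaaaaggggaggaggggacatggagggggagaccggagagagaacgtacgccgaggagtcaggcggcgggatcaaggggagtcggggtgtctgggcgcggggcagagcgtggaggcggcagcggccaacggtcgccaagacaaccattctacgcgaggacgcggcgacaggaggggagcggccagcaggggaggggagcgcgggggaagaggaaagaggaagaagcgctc
CDKN2A, p16INK4a start, chr9:21974858-21975107: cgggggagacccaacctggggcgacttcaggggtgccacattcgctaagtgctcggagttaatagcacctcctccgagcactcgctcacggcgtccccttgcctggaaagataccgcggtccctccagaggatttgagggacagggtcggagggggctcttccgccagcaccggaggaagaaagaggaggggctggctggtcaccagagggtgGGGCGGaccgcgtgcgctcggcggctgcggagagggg
CDKN2B, p15INK4b start, chr9:22009306-22009555: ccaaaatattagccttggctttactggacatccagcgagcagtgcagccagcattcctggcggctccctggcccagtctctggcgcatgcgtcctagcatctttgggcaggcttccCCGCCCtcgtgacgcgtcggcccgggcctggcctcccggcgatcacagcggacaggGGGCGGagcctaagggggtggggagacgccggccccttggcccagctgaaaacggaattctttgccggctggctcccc

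The p16INK4a start is 20467 bases downstream of the p14ARF start. The GC content of the 3 windows was 66.8%, 66.8% and 66.4%, against a median of 58.0% over 35116 promoter windows of the same length. The GC box was found 0, 1 and 2 times, and 42.6% of all windows held it at least once. The E2F words TTTCCCGC, TTTGGCGC, TTTCGCGC and TTTGCCGC, searched on both strands, matched none of the 3 windows and 2.79% of all windows. Of the 10 members, 7 matched the RefSeq promoter table, with 11 windows in all, of which 7 held a GC box and 0 an E2F word. CCND1, CCND2 and CDKN1C had no entry. The RB1 entry lies 172699 bases inside the gene and is not that of its main start. These letters describe the windows and show no binding.

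Summed over its transcripts, CDKN2A (ENSG00000147889) was the most abundant member on day 0, with 195 FPKM, and had 224, 196 and 186 FPKM on days 3, 6 and 9. On the highest transcript of each gene alone, CCND1 ranked 1 and CDKN2A ranked 2 on day 0. The 4 libraries lay close together, and the log2 ratios of 0.20, 0.01 and -0.06 were among the smallest of the 10 members. On day 6, 98.4% of all genes tested were at least as far from 0. Of its 11 listed transcripts, 4 held most of the FPKM. ENST00000361570, which Ensembl assigns to p14ARF, had 69.9, 81.7, 68.2 and 74.8 FPKM from day 0 to day 9. ENST00000304494, which Ensembl assigns to p16INK4a, had 43.7, 34.5, 39.3 and 32.8. Neither of these transcripts reached the 2-fold limit on any day. The assignment is general knowledge and is not given in the deposited table. The other 2, ENST00000578845 and ENST00000579122, had 49.8 and 24.5 FPKM on day 0 and 45.0 and 27.2 on day 9, and all these transcripts share exons.

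CDKN2B (ENSG00000147883), whose product is induced by TGF-beta in many cells, had 8.34 FPKM before induction and then 22.3, 16.5 and 14.2 FPKM. The highest library was that of day 3, and each later one was lower than the one before it while staying above day 0. Its log2 ratios were 1.32, 0.90 and 0.70, of which the first passed the 2-fold limit. Both listed transcripts did so on day 3, and ENST00000276925 carried 79.6% to 82.8% of the FPKM in each library. In every library CDKN2B was well below the CDKN2A sum. The sum of both genes thus moved little, from 203 FPKM on day 0 to 246 on day 3 and 200 on day 9. It includes ENST00000361570, assigned to p14ARF, and so is not a sum of INK4 inhibitors alone. ENST00000304494, assigned to p16INK4a, was closer to CDKN2B, with 43.7 FPKM on day 0, 34.5 on day 3 and 32.8 on day 9. MTAP, the gene on the other side of CDKN2A, had log2 ratios of 0.07, 0.25 and 0.36. The antisense lncRNA CDKN2B-AS1 (ANRIL), which overlaps CDKN2B, had 3.73, 5.37, 6.87 and 5.84 FPKM over 6 transcripts, with its highest value on day 6 and log2 ratios of 0.43, 0.74 and 0.53. Of 2357 lncRNA genes that reached 1 FPKM, 14.3%, 15.5% and 13.4% were 2-fold higher than day 0 on days 3, 6 and 9.

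Against day 0 the KIP genes differed in direction, while from day 3 on both were lower in each later library. For CDKN1C, at a low level, days 6 and 9 were too close to be ordered, with a log2 ratio of -0.09. At least as far from 0 between those days were 62.9% of all genes tested. CDKN1B (ENSG00000111276) had 33.8, 28.4, 18.9 and 16.1 FPKM in order of day, so that each library was below the one before. The log2 ratio to day 0 was -0.24, -0.81 and -1.03, and only the last reached the limit. It did so narrowly: with the FPKM rescaled to a median log2 ratio of 0 it was -0.94, and on the transcript ENST00000228872 alone, which carried 92.2% to 98.9% of the FPKM, it was -0.99. On day 9, 782 genes had a lower ratio. CDKN1C (ENSG00000129757), an imprinted gene, was the least abundant member on days 3, 6 and 9, with 6.13, 3.01 and 2.77 FPKM, and had 1.78 on day 0. As with CDKN2B, its highest library was that of day 3, with a log2 ratio of 1.36 against 0.53 and 0.44 on days 6 and 9. No single transcript carried this: ENST00000440480 had 1.07 FPKM on day 0 and 2.80 on day 3, and ENST00000380725 had 0.491 and 2.41.

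CDKN1C lies in an imprinted region of chromosome 11, whose other genes were read beside it. The lncRNA H19 of the same region also had its highest library on day 3, with 1.36, 13.6, 4.97 and 2.65 FPKM from day 0 to day 9 and log2 ratios of 2.63, 1.34 and 0.63. KCNQ1OT1, the antisense lncRNA of the domain that holds CDKN1C, had 1.63, 2.92, 2.43 and 1.43 FPKM and stayed within the 2-fold limit. Both thus had their highest value on day 3, as CDKN1C did. IGF2, the growth factor gene next to H19, had 1.66 FPKM on day 0 and 21.3, 22.8 and 18.7 later, with a log2 ratio of 2.89 on day 9 and no peak on day 3. PHLDA2, SLC22A18 and NAP1L4 had log2 ratios on day 9 of -0.21, 0.36 and 0.40, and KCNQ1 was under 1 FPKM in every library. SLC22A18 also had its highest library on day 3 (7.07 FPKM, log2 ratio 0.64). PHLDA2 had its lowest there (43.9 FPKM, log2 ratio -0.35), and NAP1L4 had its highest on day 9 (112 FPKM).

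**Figure D4:**
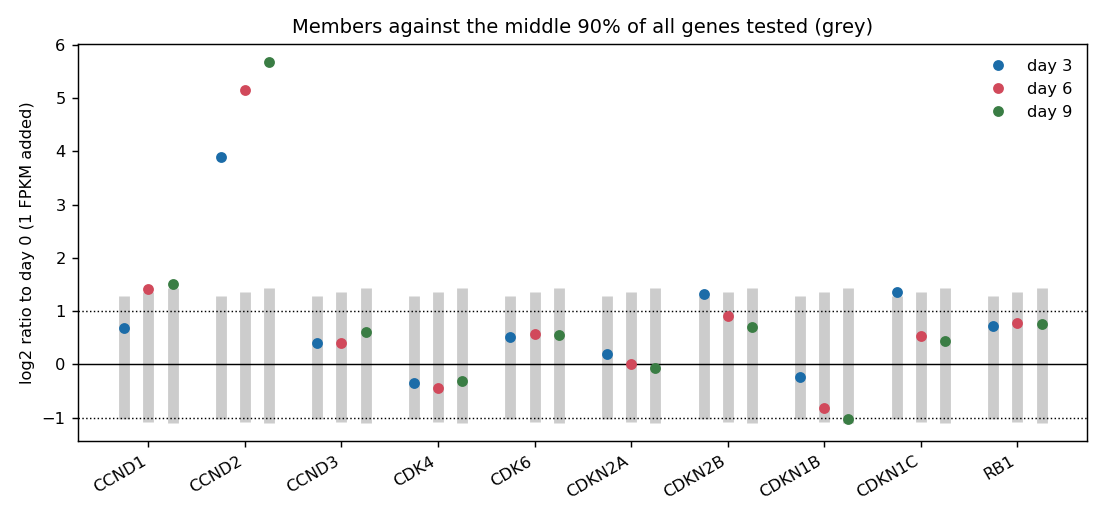
log2 ratio to day 0 (1 FPKM added) of each member on days 3, 6 and 9, over grey bars that span the 5th to the 95th percentile of the 12859 genes tested, with dotted lines at the 2-fold limit. CCND2 lies far above the bars on all 3 days, CCND1 just above them on days 6 and 9, CDKN2B and CDKN1C just above them on day 3, and all other points lie within them.

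Among the libraries taken at the higher temperature, far fewer genes differed. Between days 3 and 6, CCND2 was 2-fold higher (1 of 10 members, against 0.607% of all genes tested), with a log2 ratio of 1.27 that 45 genes exceeded, and 0 members were lower (0.443%, or 1.05% in either direction). CCND1 had a log2 ratio of 0.74 in this comparison, under the limit, and 172 genes exceeded it. At the other end CDKN1C had -0.83, and 92 genes were lower. CDKN1B had -0.57, CDKN2B had -0.42 and CDKN2A had -0.19, while CCND3, CDK4, CDK6 and RB1 lay between -0.09 and 0.06. Between days 6 and 9, 0 members passed the limit in either direction (0.381% of all genes were higher and 0.163% lower, 0.544% together), and the log2 ratio furthest from 0 was that of CCND2, at 0.52. Against day 3, CCND2 was the 1 member that was 2-fold higher on day 9 (1.39% of all genes tested), and 0 were lower (0.863%). CCND2, CCND1 and CDKN1B thus differed further after day 3, CDKN2B and CDKN1C came back toward day 0, and CDK6 and RB1 stayed where they were on day 3.

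The order of the members by FPKM summed over transcripts shifted accordingly. On day 0 it ran CDKN2A, CDK4, CCND1, CDK6, CDKN1B, CCND3, RB1, CDKN2B, CDKN1C and CCND2. The levels from CDK6 to RB1, between 32.5 and 35.7 FPKM, were too close to be ordered. So were CDK4 and CCND1, with 107 and 94.2 FPKM. On day 9 the order ran CCND1, CDKN2A, CDK4, CCND2, RB1, CDK6, CCND3, CDKN1B, CDKN2B and CDKN1C. RB1, CDK6 and CCND3, between 51.5 and 55.4 FPKM, were again too close, as were CDKN1B and CDKN2B with 16.1 and 14.2. The same holds for CCND2 and RB1, with 63.9 and 55.4 FPKM. On the highest transcript of each gene alone, CCND1 ranked 1 and CDKN2A ranked 2 on day 0 and on day 9. The exchange of their places thus depended on summing transcripts. On that scale RB1 ranked 4 and CDK6 ranked 7 on both days.

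The other genes of the pathway were read from lists, whose counts on day 9 stand beside 9.6% of all genes tested that were 2-fold higher and 6.52% that were lower. These lists were also chosen with earlier results of these data known. Among 10 further G1/S cyclins, kinases and inhibitors, the day 9 library had 1 at 2-fold higher and 2 at 2-fold lower levels. The higher one was CDKN1A, which encodes the p53-induced inhibitor p21, with 74.7 FPKM on day 0 and 1524, 1391 and 1283 later and a log2 ratio of 4.08 on day 9. CDKN1A was thereby above every member in each later library. CDKN2C, which encodes the third INK4 inhibitor p18, had 67.8 FPKM on day 0 and 26.0, 18.0 and 14.5 later, with log2 ratios of -1.35, -1.86 and -2.15. Against day 0, CDKN2C thus differed in the opposite direction to CDKN2B. From day 3 on, both were lower in each later library and at similar levels, with CDKN2B at 22.3, 16.5 and 14.2 FPKM. CCNH, a subunit of the CDK-activating kinase, had a log2 ratio of -1.02 on day 9. CCNE1 and CCNE2, the E cyclins that act after the D cyclins, had 0.82 and 0.96, both under the limit.

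Of 12 other pocket proteins, E2F and DP factors, 1 was 2-fold higher and 1 was lower on day 9. E2F7, a repressor, had 24.8 FPKM on day 0 and 63.6 on day 9 (log2 ratio 1.32), and E2F2, an activator, had 8.71 and 1.79 (log2 ratio -1.80). E2F4, the main partner of the other pocket proteins, had -1.04 and -1.15 on days 3 and 6 and -0.94 on day 9. RBL1 and RBL2, the relatives of RB1, had -0.60 and 0.51. E2F1, which free RB1 restrains, had 0.22, with 35.1 FPKM on day 0 and 41.1 on day 9.

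Among 16 S-phase genes that E2F activates, 0 were 2-fold higher and 2 were lower on each of days 3, 6 and 9. Of all genes tested, 8.13% to 9.6% were higher and 5.3% to 6.52% lower on these days, so counts this small in 16 genes do not set the list apart. Their median log2 ratio on day 9 was 0.05, beside -0.09 for all genes tested. The lower ones were MCM6, a subunit of the replicative helicase, with a log2 ratio of -1.68 on day 9, and CCNA2, the S-phase and G2 cyclin, with -1.45. PCNA, the sliding clamp of DNA polymerase, had 0.90, and it is also known as a p53 target. As a group, 8 of the 16 were above 0 and 8 below on day 9, so these genes had no common direction while CCND1 and CCND2 were higher.

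Of 10 genes that turn over D cyclins or p27, 1 was 2-fold lower on day 9 and 0 were higher. The lower one was FBXO4, an F-box protein reported to act on cyclin D1, with 3.72 FPKM on day 0 and 0.486 on day 9 (log2 ratio -1.67). SKP2 and CKS1B, which target p27 for degradation, had 0.09 and -0.41, CUL1 -0.92 and FBXW7 0.91. Of 8 known regulators of the CDKN2A and CDKN2B locus, 1 was 2-fold lower on day 9, namely ID1, with 53.8 FPKM on day 0 and 10.6 on day 9 (log2 ratio -2.24). BMI1, a Polycomb protein that represses the locus, had 22.4 and 11.1 FPKM and a log2 ratio of -0.96. ETS2, an activator of p16INK4a, had 0.56.

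**Figure D5:**
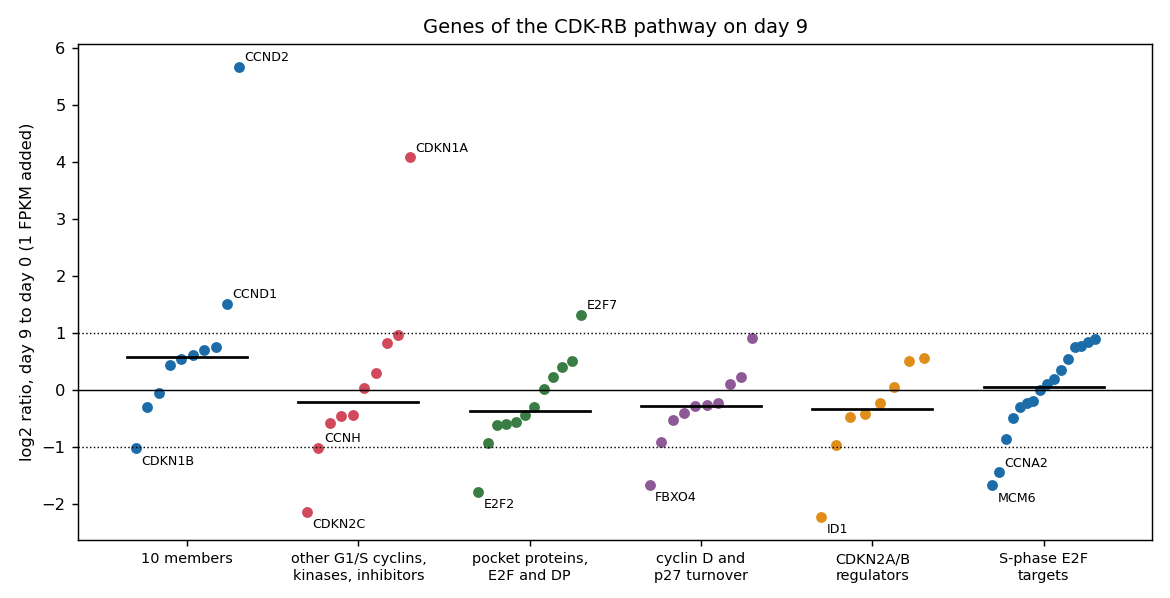
log2 ratio of day 9 to day 0 (1 FPKM added) for each tested gene of the 10 members and 5 further lists of the pathway, with a black bar at the median of each list and dotted lines at the 2-fold limit. CCND2 and CDKN1A stand apart from the rest, and the 16 S-phase genes lie on both sides of 0, with their median at 0.05.

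The genes whose 3 log2 ratios to day 0 lay nearest to those of CCND2, over 4 libraries, were CLCA2 (0.211 FPKM on day 0 and 65.6 on day 9), G0S2 (8.97 and 398) and GDF15 (11.4 and 767), at Euclidean distances of 0.44, 0.69 and 1.09. G0S2 is known as an inhibitor of triglyceride lipase and GDF15 as a stress-induced cytokine. Nearest to CDKN1B were TMEM18, APBB3 and ST3GAL5, at distances of 0.04, 0.09 and 0.09, with log2 ratios on day 9 of -1.04, -1.08 and -0.96. The 3 genes nearest to CCND2 lay further from it than those nearest to CDKN1B did from CDKN1B. CCND2 was chosen for the largest rise among the members, and only 8 genes had a larger ratio on day 9. For CDKN1B, 782 genes had a lower one. Few genes can lie near so large a ratio, so the distances do not show that the pattern of CCND2 is unusual.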

How the data were processed

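Total RNA of hFOB1.19 cells was sequenced after removal of rRNA, with 1 library for each of days 0, 3, 6 and 9, and samples were grouped by the day in their labels. The FPKM values of mRNA and lncRNA transcripts are those the authors deposited. The study's methods name a Bowtie 2 index and alignment with TopHat. The submitters' processing notes name Bowtie 0.12.2 and mm8, a mouse build, for these human samples, and the program behind the FPKM is not given in the sources used here. The labels place the RNase R step, which digests linear RNA, in the mRNA library preparation. FPKM hold no counts, so depth is unknown.

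FPKM were summed per symbol (17 of 19610 symbols cover more than 1 gene ID), 1 was added, and log2 ratios were taken. With 1 library per time point, no p-value was computed. The members and gene lists were chosen with earlier results of these data known. Named genes are the members, up to 3 genes of each list with the largest day 9 ratio, the genes of the neighbour and lncRNA lists, and the 3 nearest in pattern to the members with the largest rise and fall. CCNE1, CCNE2, RBL1, RBL2, E2F1, SKP2 and CKS1B were named after their values were seen. The alternatives covered the FPKM added, the scale, the transcript level, the minimum and the limit. CircRNA counts, whose IDs name no genes, and the authors' comparison tables with day 0 (fold changes, p-values and q-values) were not used, and 26 columns of values per sample were left aside with them. Software was Python 3.11.15, with matplotlib 3.10.9, pandas 2.3.3 and numpy 2.4.6.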

Additional observations from a re-analysis of the deposited data

How the results depend on the processing

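No paired analysis was possible because a day is represented by a single sample. The direction and the side of the limit of CCND2 on all 3 days, CCND1 on days 6 and 9, and CDKN2B and CDKN1C on day 3 held with 0.1 or 0.5 FPKM added, with both rescalings and on the highest transcript alone. CDKN1B did not hold its call: the number of members 2-fold lower on day 9 was 0 with the FPKM rescaled to a median log2 ratio of 0, with FPKM divided by the library's FPKM sum, on the highest transcript only, with a 4-fold limit and with day 3 in place of day 0. On the scale of the library's FPKM sum, CDKN2B passed the limit on day 6 as well, with a log2 ratio of 1.10. CDK4 was at 0.00, 0.04 and 0.03 on days 3, 6 and 9 on its highest transcript, and CDKN2A, near 0 throughout, changed sign on day 9 under 3 alternatives, between -0.06 and 0.10. A 1.5-fold limit, wider by construction, gave 5 members higher and 0 lower on day 3 (17.4% and 18.5% of all genes tested), 4 and 1 on day 6 (18.0% and 20.1%), 5 and 1 on day 9 (18.1% and 20.4%), and 2 and 1 between days 3 and 6 (2.32% and 2.17%). A 4-fold limit left 1 member higher on each of days 3, 6 and 9 (1.66%, 2.01% and 2.34%) and 0 between days 3 and 6 (0.07%). With day 3 in place of day 0, 1 member was higher on days 6 and 9 (0.607% and 1.39%). On the highest transcript alone CCND1 ranked 1, CDKN2A 2 and CDK4 3 on day 0. Over all genes tested, the 1046 higher and 681 lower on day 3 became 1690 and 481 on the scale of the library's FPKM sum, and the 1158 and 825 on day 6 became 1746 and 592. With 0.1 FPKM added, the 78 higher and 57 lower between days 3 and 6 became 180 and 143, and the 49 and 21 between days 6 and 9 became 116 and 107. A 1.5-fold limit gave 2330 higher and 2629 lower on day 9 and a 4-fold limit 301 and 133, against 1234 and 838. For changes other than those of the limit or of the reference day, the cause was not tested. Depth could not be read from FPKM, and the values of CCND2 on day 0 and of CDKN1C are the least certain for their low level.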

Other observations

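The nearest protein-coding genes on either side of the members, up to 2 on each side in the order of RefSeq GRCh38.p14, were read after the values of the members were known. Of 36 such genes that are no member, 34 were listed and 26 reached 1 FPKM in 1 or more libraries. Of these, 1 was 2-fold higher on day 3 and 0 were lower, 3 were higher and 2 lower on day 6, and 2 were higher and 1 lower on day 9. Of all genes tested, 8.13%, 9.01% and 9.6% were higher and 5.3%, 6.42% and 6.52% lower on these days, so the counts of neighbours lay near or below these shares. The 1 on day 3 was TIGAR, the gene next to CCND2 and a p53-induced regulator of glycolysis, with 8.13 FPKM on day 0 and 26.4, 22.4 and 21.8 later, and a log2 ratio of 1.58 on day 3 and 1.32 on day 9. On the other side of CCND2, PARP11 had 6.22 FPKM on day 0 and 5.14 on day 9, and FGF23, beyond TIGAR, was under 1 FPKM in every library. TIGAR differed most on day 3, whereas CCND2 was higher in each later library than in the one before.

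ITM2B, the gene next to RB1, had 112 FPKM on day 0 and 215, 234 and 251 later, with a log2 ratio of 1.16 on day 9, and RB1 itself had 0.75. SAMD9, next to CDK6, had 23.1 FPKM on day 0 and 9.72 on day 9, a log2 ratio of -1.17 against 0.55 for CDK6. TSPAN31, next to CDK4, had 6.55 FPKM on day 0 and 13.3 on day 3, with a log2 ratio of 0.93 against -0.34 for CDK4. These genes were chosen after their values were seen.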
